A study of Mus musculus with 4 samples.

Results

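The genes described here are components of the Nodal, TGF-beta and BMP pathways: ligands, receptors, secreted antagonists, latency proteins, Smads, nuclear partners, ubiquitin ligases and the Id target genes. They were taken from a list of 54 symbols, matched to probe sets that carry a single gene symbol, and 53 were measured, out of 18193 genes on the array. Gdf15 had no match. Expression had been measured on 4 Affymetrix arrays of E14, a line of mouse embryonic stem cells, with 2 arrays from cells given control RNAi and 2 from cells given RNAi against Npac (now Glyr1, a nucleosome-binding chromatin protein). All cells were grown in LIF (1000 units per ml), with 15% serum; LIF is the cytokine that keeps them undifferentiated. They were transfected with a short hairpin RNA and selected with puromycin for 3 days from 24 hours after transfection, so each array reads a selected pool of cells, not a clone. The sources used here do not describe the control hairpin or say how many Npac hairpins were used. Nothing in the labels says whether replicates came from separate cultures, so p-values measure the spread between these arrays, which may be technical.

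TGF-beta superfamily ligands are secreted dimers that bring together type I and type II receptor kinases at the cell surface. Nodal, activins and TGF-betas signal through Smad2 and Smad3, BMPs through Smad1 and Smad5, and both branches use Smad4 to reach the nucleus. Both branches also induce their own inhibitors. In serum-grown mouse embryonic stem cells, BMP signals raise the Id genes and support self-renewal with LIF, and in the early embryo Nodal and BMP signals pattern the epiblast and its neighbours.

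The Npac RNAi arrays held more of many of these transcripts relative to the bulk of the transcriptome. Of 53 members, 25 rose and 6 fell (limma, Benjamini-Hochberg adjusted p under 0.05 over all genes, n = 2 arrays per group), where 22.1% of all genes were higher and 18.7% lower. These counts came to 47.2% and 11.3% of the members, and the share called in either direction was 58.5% against 40.8% of all genes. Brighter genes were called more often, and 34 members lay at or above the median level. Of those 61.8% were higher and 8.82% lower, against 33.6% and 19.3% of all genes at that level. Below it, 21.1% of 19 members were higher and 15.8% lower, against 10.5% and 18.1% of all genes there. A gene's level was its mean over all arrays, so the Npac RNAi values helped to place it. Bmp8b, Tgfbr2, Fst and Bmp1, all called higher, reached the median (7.49) only through their Npac RNAi values. Their control means were 7.14, 7.36, 7.15 and 7.13. The split by level is therefore not independent of the changes counted in it. By 1.5-fold or more, 18 members rose, led by Bmp8b, Lefty2 and Tgfbr2, and 1, Inhbb, fell; 8.09% of all genes were higher and 2.04% lower by that much, 10.1% in all. The median log2 difference was 0.17 over the members and -0.040 over all genes. The arrays of the 2 groups did not overlap for 31 members in the higher direction and 13 in the lower one (34.1% and 40.1% of all genes, 74.2% in all).

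The direction of the smaller changes depended on the scale. The deposited values were made with RMA (robust multi-array averaging), which equalises arrays, so every difference is relative to the bulk of transcripts. The 24 poly-A spike-in probe sets, which read bacterial transcripts meant to be added to every RNA sample in equal amount, stood 0.54 higher on the Npac RNAi arrays. The labels do not say whether or how these transcripts were added. Scaling on them shifts every log2 difference by -0.54. On that scale 11 members were higher and 28 lower (4.98% and 81.9% of all genes) and the median over the members was -0.37. The split was 23 higher and 13 lower after centring arrays on the gene median, a shift of -0.14 (15.6% and 39.4% of all genes), 23 and 10 after quantile normalization (18.9% and 21.3%), and 24 and 5 after cyclic loess (21.8% and 16.5%). The 11 genes higher on the spike-in scale were Bmp8b, Lefty2, Bmp2, Tgfb2, Tgfbr2, Tgfbr3, Fst, Bmp1, Smad3, Ski and Id2. With the replicate number as a block, 23 were higher and 3 lower (14.9% and 9.15%). Dropping control array 1 left 21 higher and 2 lower members (14.4% and 8.20% of all genes), and dropping control array 2 left 21 and 3 (11.5% and 5.43%). Dropping Npac array 1 left 22 and 4 (15.2% and 10.8%), and dropping Npac array 2 left 21 and 3 (12.1% and 6.82%).

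**Figure D1:**
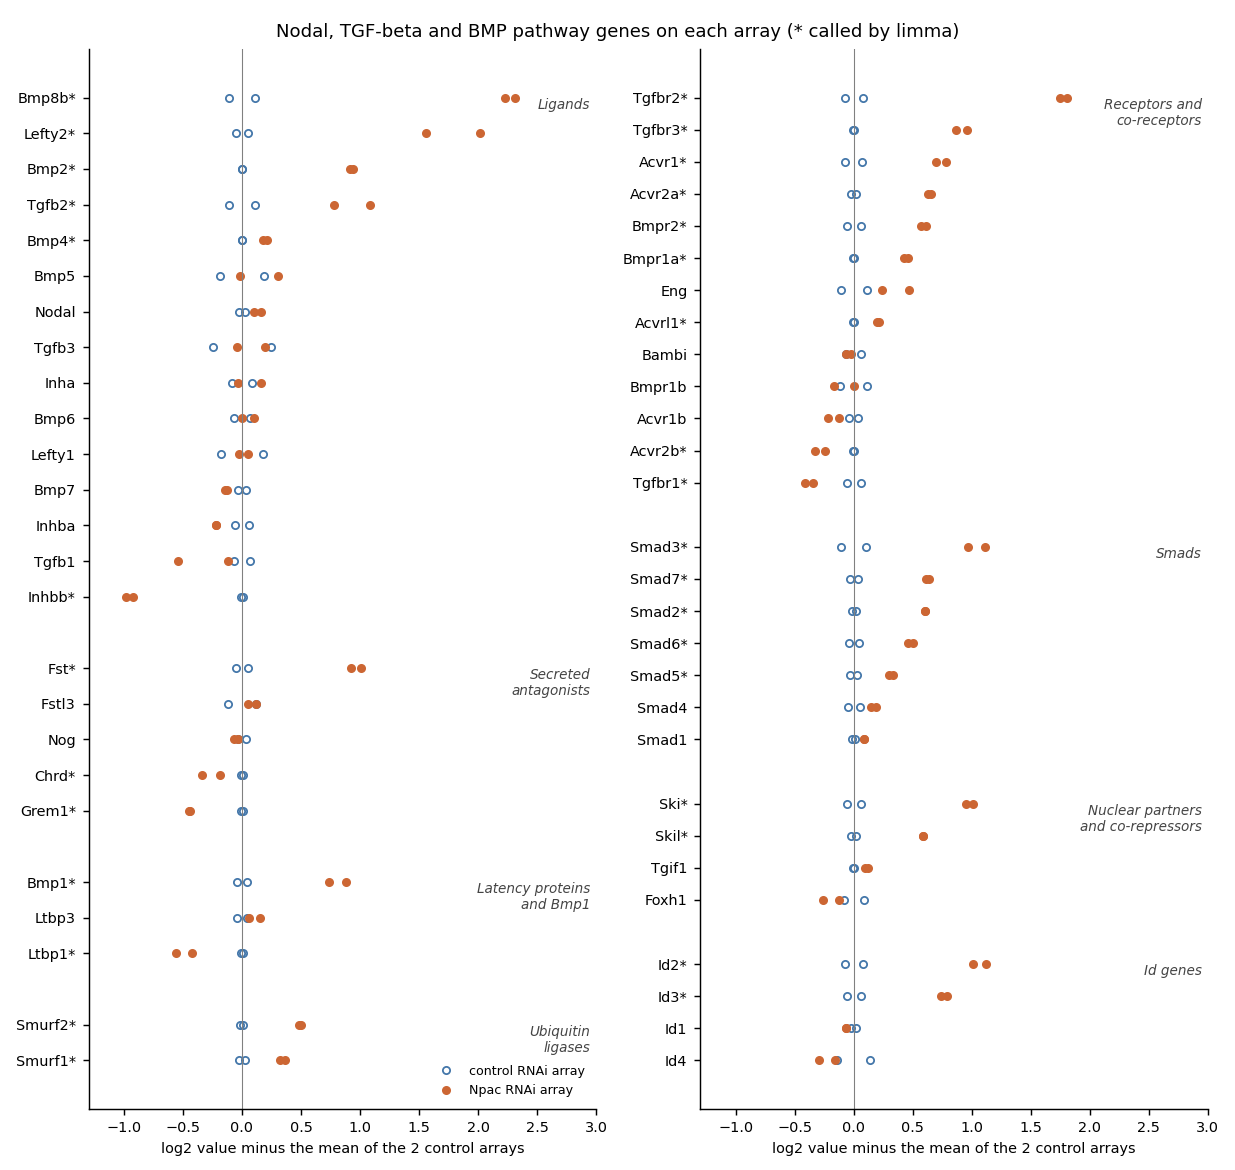
Each row is a pathway gene, grouped by role, and each point is 1 array, plotted as its log2 value minus the mean of the 2 control arrays (open, control RNAi; filled, Npac RNAi; an asterisk marks an adjusted limma p under 0.05). Both Npac RNAi arrays lay far to the right of both control arrays for Bmp8b, Lefty2 and Tgfbr2 and to the left for Inhbb; on the spike-in scale every filled point would move left by 0.54.

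Glyr1 itself, the targeted gene, read 11.30 and 11.32 on the control arrays and 10.23 and 10.20 on the Npac RNAi arrays, which left 46.9% of the control level. All 10 embryonic stem cell markers listed for this check had means at or above percentile 80.8 of all genes. Of these markers 7 fell and 0 rose, and their summed level was 16.40 on both control arrays and 16.11 and 16.13 on the Npac RNAi arrays (log2 of the sum of linear values). Of 11 measured trophectoderm markers 9 rose and 0 fell, and their summed level went from 13.33 and 13.35 to 15.39 and 15.41. Elf5 and Tpbpa, 2 of these markers, had means below the 25th percentile of all genes (5.51). The summed primitive endoderm markers stood at 13.06 to 13.09 on control and 13.64 to 13.71 on Npac RNAi arrays (3 of 9 rose, 1 fell). The mesoderm markers stood at 9.60 to 9.63 and 10.14 to 10.17 (2 of 6 rose, 2 fell), and the fibroblast markers at 12.85 to 12.88 and 12.69 to 12.70 (2 of 14 rose, 4 fell). Linear sums weigh the brightest genes most. On the Npac RNAi arrays these were Krt8 (mean 14.13) and Krt18 (14.10) for trophectoderm, and Col4a1 (12.57) and Lamb1 (12.19) for primitive endoderm. For mesoderm it was Eomes (9.32), which rose by 1.24. Of the other mesoderm markers, Hand1 rose (0.37), Mesp1 (-0.40) and Mixl1 (-0.31) fell, and Kdr and Gsc had no call. The endoderm markers Gata6, Gata4 (-0.018) and Sox7 (0.017) overlapped between groups. Against these marker counts, 22.1% of all genes were higher and 18.7% lower. On the spike-in scale each difference in summed level is 0.54 lower, about the size of the primitive endoderm and mesoderm rises. The part of these cell type markers in the pathway results was not tested. In bulk RNA, fewer cells of a type and less RNA per cell cannot be told apart.

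Sequence upstream of the start site is shown for the Id genes in the promoter table and for Bmp8b, Tgfbr2 and Inhbb, respectively the ligand and the receptor that rose most and the ligand that fell. The promoter table used here has no entry for Lefty2. The stretches are the 250 bases before the RefSeq start (assembly GRCm38.p6), 5′ to 3′ on the gene's strand. Capitals mark GGCGCC, a GC-rich sequence bound by Smads, and CAGAC or its reverse complement GTCTG, the core of the Smad box.
Id2: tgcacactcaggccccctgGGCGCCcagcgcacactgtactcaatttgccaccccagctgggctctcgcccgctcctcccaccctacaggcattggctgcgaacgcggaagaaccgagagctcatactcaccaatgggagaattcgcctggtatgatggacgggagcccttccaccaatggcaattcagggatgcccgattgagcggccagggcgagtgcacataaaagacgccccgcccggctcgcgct
Id3: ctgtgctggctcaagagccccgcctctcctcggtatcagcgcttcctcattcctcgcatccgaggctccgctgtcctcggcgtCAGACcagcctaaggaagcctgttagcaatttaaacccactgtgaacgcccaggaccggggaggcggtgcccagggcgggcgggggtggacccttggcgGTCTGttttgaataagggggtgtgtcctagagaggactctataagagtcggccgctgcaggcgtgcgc
Id4: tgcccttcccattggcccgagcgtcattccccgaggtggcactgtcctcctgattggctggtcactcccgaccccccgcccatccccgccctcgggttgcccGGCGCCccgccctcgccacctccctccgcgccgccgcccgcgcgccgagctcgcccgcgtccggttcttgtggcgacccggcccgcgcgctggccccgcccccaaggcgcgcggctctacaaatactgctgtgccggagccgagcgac
Bmp8b: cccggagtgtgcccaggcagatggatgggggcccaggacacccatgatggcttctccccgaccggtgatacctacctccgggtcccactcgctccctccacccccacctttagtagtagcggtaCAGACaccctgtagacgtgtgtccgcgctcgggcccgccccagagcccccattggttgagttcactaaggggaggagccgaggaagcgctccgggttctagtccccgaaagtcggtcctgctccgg
Tgfbr2: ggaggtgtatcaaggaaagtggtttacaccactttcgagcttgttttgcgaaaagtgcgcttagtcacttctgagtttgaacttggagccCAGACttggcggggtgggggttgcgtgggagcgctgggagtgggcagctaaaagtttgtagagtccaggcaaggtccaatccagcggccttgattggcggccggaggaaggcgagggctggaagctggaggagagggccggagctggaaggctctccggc
Inhbb: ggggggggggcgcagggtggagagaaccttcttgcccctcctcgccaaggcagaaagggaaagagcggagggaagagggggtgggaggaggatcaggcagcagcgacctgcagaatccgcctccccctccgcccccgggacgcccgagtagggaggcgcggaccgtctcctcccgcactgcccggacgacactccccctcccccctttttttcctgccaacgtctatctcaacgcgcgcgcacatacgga
They lie at chr12:25096093-25096342 (minus strand) for Id2, chr4:136143572-136143821 (plus) for Id3, chr13:48260866-48261115 (plus) for Id4, chr4:123104911-123105160 (plus) for Bmp8b, chr9:116175364-116175613 (minus) for Tgfbr2 and chr1:119422249-119422498 (minus) for Inhbb. The GGCGCC letters occurred 1 time in Id2, which rose, and 1 time in Id4, which did not pass the test, and 0 times in the other four. CAGAC on either strand occurred 2 times in Id3 and 1 time each in Bmp8b and Tgfbr2, which all rose. It occurred 0 times in Id2, which also rose, in Id4, which had no call, and in Inhbb, which fell. Among 37 members with an entry, 10 (27.0%) held GGCGCC in at least 1 such window and 21 (56.8%) held CAGAC on either strand, against 10.9% and 45.8% of 27025 genes. GC content was not matched in that comparison, and a match is not evidence of binding.

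Among the 15 ligands measured, 5 rose and 1 fell on the deposited scale (22.1% and 18.7% of all genes), whereas 4 were higher and 10 lower on the spike-in scale (4.98% and 81.9% of all genes). Bmp8b, a BMP that acts with Bmp4 in the induction of primordial germ cells, read 7.03 and 7.25 on the control arrays and 9.37 and 9.46 on the Npac RNAi arrays. Both Npac RNAi arrays stood far above both control arrays, a 4.83-fold rise (log2 difference 2.27, SE 0.0911, limma adjusted p = 0.000969), and the second Bmp8b probe set gave 2.71. Bmp8b has a close relative, Bmp8a, and probes may bind both transcripts. Bmp8a, chosen after its values were seen, differed by 0.50 (SE 0.103, limma adjusted p = 0.0241), lost its call without either control array or without Npac array 1, and was -0.043 on the spike-in scale. Bmp2, a ligand of the BMP branch, read 7.01 on both control arrays and 7.95 and 7.93 on the Npac RNAi arrays, a 1.91-fold rise (0.93, SE 0.0458, limma adjusted p = 0.0013). Bmp4, the BMP most used in stem cell culture, moved little. Its values were 8.94 and 8.95 on control arrays and 9.12 and 9.16 on Npac RNAi arrays (0.19, SE 0.0464, limma adjusted p = 0.0353). That call was lost without any 1 of the 4 arrays (0.18 to 0.21) and the difference was -0.35 on the spike-in scale.

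On the Nodal side the ligand and its inhibitors did not share a call. Nodal read 11.27 and 11.32 on the control arrays and 11.45 and 11.40 on the Npac RNAi arrays, and did not pass the test (0.13, SE 0.0516, limma adjusted p = 0.109). Lefty2, a secreted inhibitor that Nodal signalling induces, read 5.51 and 5.40 on the control arrays and 7.01 and 7.47 on the Npac RNAi arrays. It rose 3.45-fold (1.79, SE 0.167, limma adjusted p = 0.00404), from control values that lay at or below the 25th percentile of all genes (5.51). Lefty1, its neighbour and close homologue, read 6.59 and 6.94 on control arrays and 6.74 and 6.81 on Npac RNAi arrays, with the groups overlapping (0.014, SE 0.13, limma adjusted p = 0.943). Each Lefty gene was read by 1 probe set, which may bind the transcript of the other, and the difference between their responses was not tested.

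Activin and TGF-beta ligands moved in both directions. Inhbb, the beta B subunit of activin and inhibin, is the member that fell most on the deposited values. It read 8.61 and 8.60 on the control arrays and 7.62 and 7.68 on the Npac RNAi arrays, a 1.94-fold fall (-0.95, SE 0.0487, limma adjusted p = 0.00136), and its second probe set also fell (-0.39). Inhba, the beta A subunit, missed the threshold (-0.22, SE 0.062, limma adjusted p = 0.0513) although its dimmer probe set passed when probe sets were tested singly (-0.48). Tgfb2 read 5.92 and 6.15 on the control arrays and 6.81 and 7.12 on the Npac RNAi arrays, a 1.91-fold rise (0.93, SE 0.137, limma adjusted p = 0.0107). The call on Tgfb2 was lost without control array 1 (0.82), and its 4 probe sets ranged from -0.0030 to 1.78. The remaining ligands had no call: Bmp5, Bmp6, Bmp7, Tgfb1, Tgfb3 and Inha, the inhibin alpha subunit, lay between -0.33 and 0.14. Bmp7 stood at -0.14, although the second of its 3 probe sets rose when tested singly (0.41). Inha, Tgfb1, Tgfb3 and Bmp5 were dim, below the 25th percentile.

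The 13 receptors and co-receptors gave 7 that rose and 2 that fell on the deposited scale (22.1% and 18.7% of all genes), and 2 higher and 6 lower on the spike-in scale (4.98% and 81.9%). Tgfbr2, the type II receptor for TGF-beta, moved most, from 7.43 and 7.28 on the control arrays to 9.11 and 9.16 on the Npac RNAi arrays, a 3.43-fold rise (1.78, SE 0.0715, limma adjusted p = 0.000969). Tgfbr1, the type I receptor that Tgfbr2 pairs with, went the other way. It read 10.49 and 10.37 on control and 10.02 and 10.09 on Npac RNAi arrays, 1.3-fold lower (-0.38, SE 0.0653, limma adjusted p = 0.0157). The Tgfbr1 call was lost without control array 1 (-0.32), Npac array 1 (-0.34) or Npac array 2 (-0.41). Tgfbr3, or betaglycan, a co-receptor that presents TGF-beta2 to the receptor pair, read 8.59 and 8.60 on control and 9.55 and 9.46 on Npac RNAi arrays, a 1.89-fold rise (0.92, SE 0.0557, limma adjusted p = 0.00179). Eng, the related co-receptor endoglin, read 8.28 and 8.50 against 8.86 and 8.63 and did not pass (0.36, SE 0.117, limma adjusted p = 0.0737), while its dimmer probe set did when tested singly (0.80).

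Among BMP and activin receptors, the type II receptors rose except for Acvr2b. Acvr2a, which binds activins and several BMPs, read 8.96 and 8.92 on control and 9.57 and 9.60 on Npac RNAi arrays (0.64, SE 0.0478, limma adjusted p = 0.00256). Bmpr2, the dedicated BMP type II receptor, read 9.96 and 9.84 against 10.51 and 10.47 (0.59, SE 0.0614, limma adjusted p = 0.00498). Acvr2b fell slightly (-0.28, SE 0.054, limma adjusted p = 0.0199), a call lost without any 1 array (-0.33 to -0.24). The BMP type I receptor gene Acvr1 read 8.57 and 8.42 against 9.19 and 9.27, a 1.67-fold rise (0.74, SE 0.0727, limma adjusted p = 0.0045). Bmpr1a, the type I receptor for Bmp2 and Bmp4, rose less, from 10.57 and 10.56 to 10.99 and 11.03 (0.44, SE 0.047, limma adjusted p = 0.00517). On the spike-in scale Acvr1, Acvr2a and Bmpr2 had differences of 0.20, 0.10 and 0.051 without a call, and Bmpr1a turned to -0.097. Acvrl1, a type I receptor best known from endothelium, was dim and rose by 0.21 on the deposited scale (SE 0.0452, limma adjusted p = 0.0279). Its call was lost without any 1 array (0.20 to 0.21), and it was -0.33 on the spike-in scale. Acvr1b, the activin and Nodal type I receptor, Bmpr1b and the pseudoreceptor Bambi did not pass the test (-0.17, -0.081 and -0.045).

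Of 5 secreted antagonists 1 rose and 2 fell (22.1% and 18.7% of all genes). On the spike-in scale 1 was higher and 4 lower (4.98% and 81.9% of all genes). Fst, follistatin, which traps activins, read 7.20 and 7.10 on control and 8.08 and 8.16 on Npac RNAi arrays. That is a 1.96-fold rise (0.97, SE 0.0649, limma adjusted p = 0.00211), and a second probe set gave 1.01. The BMP antagonists Grem1 (-0.44, SE 0.0455, limma adjusted p = 0.00485) and Chrd, chordin (-0.26, SE 0.0686, limma adjusted p = 0.0444), fell. Grem1 was dim, and the Chrd call was lost without any 1 array (-0.33 to -0.18). Nog, noggin, was dim and the activin antagonist Fstl3 overlapped between groups (-0.048 and 0.086, neither called). Bmp1 is no BMP ligand but a metalloprotease that cleaves procollagens and chordin. It read 7.17 and 7.10 against 8.02 and 7.87, a 1.75-fold rise (0.81, SE 0.0727, limma adjusted p = 0.0037). Of the latency proteins that hold TGF-beta in the matrix, Ltbp1 fell (-0.49, SE 0.065, limma adjusted p = 0.0082) and Ltbp3 had no call (0.11). The Ltbp1 call was lost without control array 1 (-0.48) or control array 2 (-0.51).

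Of 7 Smads, 5 rose and 0 fell on the deposited values (22.1% and 18.7% of all genes). On the spike-in scale only Smad3 was higher, and Smad1 and Smad4 were lower (4.98% and 81.9% of all genes). Smad3, an effector of Nodal, activin and TGF-beta, read 8.54 and 8.33 on control and 9.54 and 9.40 on Npac RNAi arrays, a 2.05-fold rise (1.04, SE 0.099, limma adjusted p = 0.00424). Smad2, its partner in that branch, read 9.74 and 9.70 against 10.32 and 10.33, a 1.52-fold rise (0.60, SE 0.0464, limma adjusted p = 0.00275). Of the BMP effectors, Smad5 rose by 0.31 (SE 0.0512, limma adjusted p = 0.0135) and Smad1 had no call (0.086, SE 0.0459, limma adjusted p = 0.2). The Smad5 call was lost without any 1 array (0.28 to 0.35), and its difference was -0.23 on the spike-in scale. Smad4, the shared partner, had no call by the deposited values (0.17, SE 0.0582, limma adjusted p = 0.0816). Both inhibitory Smads rose. Smad7, a feedback inhibitor of both branches, read 10.25 and 10.31 against 10.92 and 10.89 (0.63, SE 0.051, limma adjusted p = 0.00311). Smad6, which acts mainly on BMP signals, read 7.83 and 7.91 against 8.38 and 8.33 (0.48, SE 0.0554, limma adjusted p = 0.0062). On the spike-in scale Smad7 stood at 0.088 and Smad6 at -0.060, neither called.

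Other intracellular inhibitors were also higher on the deposited scale. Ski, a co-repressor that binds Smads, read 9.58 and 9.70 on control and 10.65 and 10.59 on Npac RNAi arrays, a 1.98-fold rise (0.98, SE 0.0635, limma adjusted p = 0.00195). Skil, or SnoN, its homologue and a target of Nodal signalling, read 11.03 and 10.98 against 11.59 on both Npac RNAi arrays, a 1.5-fold rise (0.59, SE 0.0476, limma adjusted p = 0.00307). The ubiquitin ligase genes Smurf1 and Smurf2, whose products mark Smads and receptors for degradation, rose by 0.34 (SE 0.051, limma adjusted p = 0.0108) and 0.49 (SE 0.046, limma adjusted p = 0.00403). The Smurf1 call was lost without control array 2 or Npac array 2 (0.32 each). On the spike-in scale Ski was 0.44, Skil 0.049, Smurf2 -0.046 and Smurf1 -0.20, and of these only Ski was called. Tgif1, another co-repressor, had no call (0.11, SE 0.0457, limma adjusted p = 0.129). Foxh1, the DNA-binding partner of Smad2 and Smad3 in Nodal signalling, had none either (-0.19, SE 0.0864, limma adjusted p = 0.141), although the second of its 3 probe sets fell when tested singly (-0.40).

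The 4 Id genes, whose products block basic helix-loop-helix transcription factors and whose transcripts respond to BMP, did not share a call. Id2 read 11.19 and 11.04 on control and 12.13 and 12.24 on Npac RNAi arrays, a 2.09-fold rise (1.07, SE 0.0786, limma adjusted p = 0.00253). All 3 Id2 probe sets rose, by 1.07, 1.35 and 1.5. Id3 read 10.92 and 11.04 against 11.72 and 11.77, a 1.70-fold rise (0.77, SE 0.0634, limma adjusted p = 0.00319). Id1 read 12.22 and 12.27 against 12.18 on both Npac RNAi arrays and did not pass the test (-0.065, SE 0.0476, limma adjusted p = 0.323). Id4 read 8.90 and 8.61 against 8.46 and 8.59, with Npac RNAi below both control values by a small margin and no call (-0.23, SE 0.115, limma adjusted p = 0.182). On the spike-in scale Id2 was called higher (0.53), Id3 had no call (0.23), and Id1 (-0.60) and Id4 (-0.77) were called lower. The difference between the Id genes' responses was not tested.

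**Figure D2:**
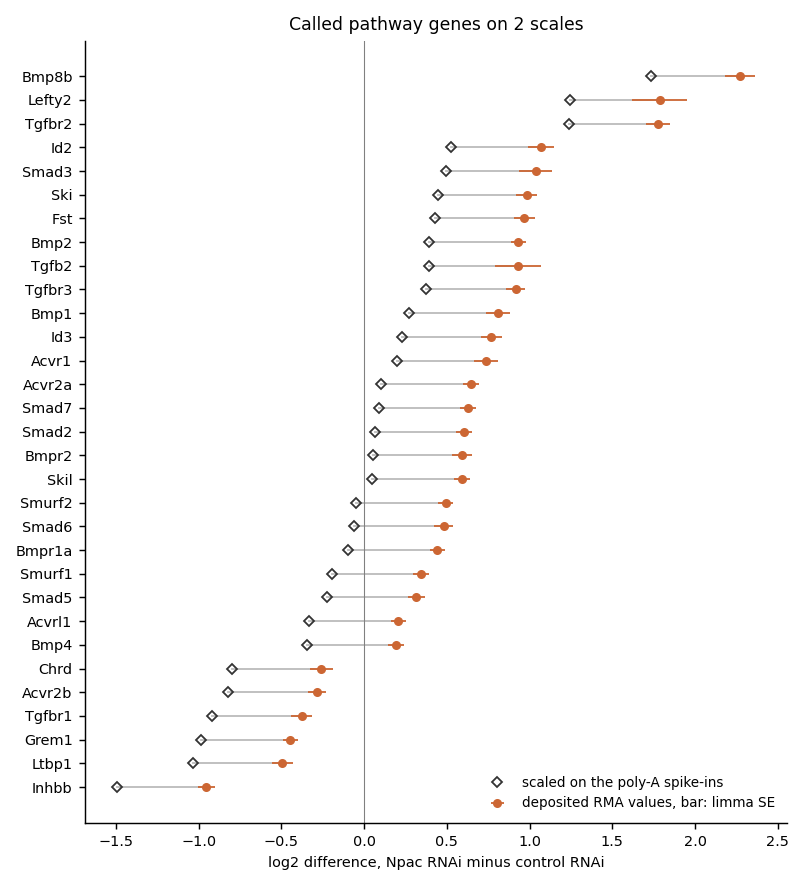
The 31 called pathway genes are ranked by log2 difference, Npac RNAi minus control RNAi, on the deposited values (filled circles with limma SE, n = 2 arrays per group) and after scaling on the poly-A spike-ins (open diamonds). Every gene moves left by 0.54, so that 18 of the 25 raised genes stay above 0 and 7, from Smurf2 to Bmp4, fall below it.

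Probe sets of 1 gene often gave different sizes. Of 37 members with more than 1 probe set, 7 had every probe set called higher when each was tested on its own: Bmp8b, Id2, Acvr2a, Smad2, Smad7, Fst and Skil. Inhbb alone had all of them lower. None had probe sets called in opposite directions, 10 had no called probe set, and 19 mixed called and uncalled ones. Over all 116 member probe sets, 49 were called and 40 of them were higher, where 28.2% of all 45037 probe sets were called and 14.2% were higher. The widest spread was that of Tgfbr2, where the brightest probe set gave 1.78 and the others, dimmer, 0.057 and -0.14. Smad3 gave 1.04 for its brightest probe set and -0.11 and 0.017 for the others, Bmp1 gave 0.81, 0.15 and -0.23, and Tgfbr3 gave 0.92 and -0.014. Ski differed between 2 bright probe sets, 0.98 for the one at 9.64 in control cells and 0.062 for the one at 9.36. Smurf2 did as well, with 0.49 for the brightest and 0.035 and 0.099 for the others. With the mean of probe sets as the gene's value, Tgfbr2 (0.56), Tgfbr3 (0.45) and Ski (0.52) kept their calls. Smad3 (0.31), Bmp1 (0.24), Acvrl1 (0.14) and Smurf1 (0.086), whose second probe set gave -0.17, lost theirs. By that measure 22 members were higher and 8 lower (18.6% and 18.7% of all genes). Which probe set reads the main transcript was not tested.

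**Figure D3:**
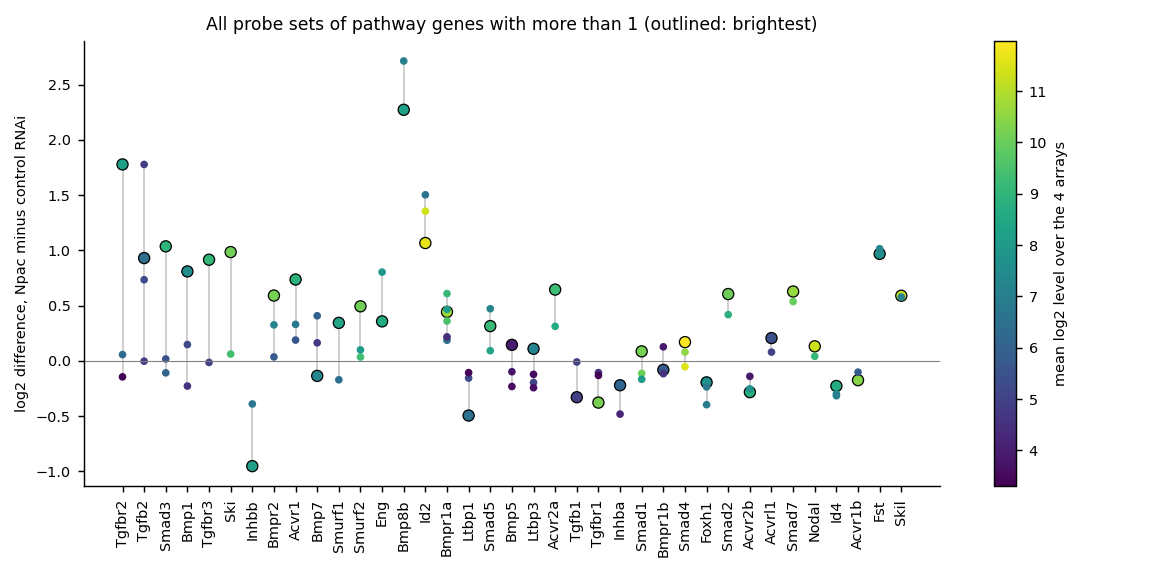
Each column is 1 of the 37 pathway genes with more than 1 probe set, ordered by the spread between them, and each point is a probe set at its log2 difference, Npac RNAi minus control RNAi, coloured by its mean level. The outlined point is the brightest probe set, which stands for the gene; in Tgfbr2, Smad3, Bmp1 and Tgfbr3 only that one lies far from 0, whereas all probe sets of Bmp8b, Id2 and Fst are high.

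A second list of TGF-beta superfamily genes outside the members, drawn up with results of these data known, gave 28 higher and 10 lower of 84 measured (33.3% and 11.9%), where 22.1% and 18.7% of all genes were called. Scaled on the spike-ins, 13 of these genes were higher and 60 lower (4.98% and 81.9% of all genes). After centring 23 were higher and 27 lower (15.6% and 39.4% of all genes). Of its 8 other receptors and co-receptors 0 rose and 1 fell, Tdgf1, or Cripto, the co-receptor that Nodal needs. Tdgf1 read 12.86 and 12.88 on the control arrays and 11.64 on both Npac RNAi arrays (-1.23, SE 0.0457, limma adjusted p = 0.000831). Of 11 other ligands 1 rose, Bmp8a, and 1 fell, Gdf3, a Nodal-like ligand of pluripotent cells (-0.28, SE 0.0472, limma adjusted p = 0.0145). The Gdf3 call was lost without any 1 array. The Nodal antagonist Cer1 (-0.18) and Smad9, the third BMP effector Smad (-0.34), had no call.

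Among matrix and activation genes, 5 of 10 rose and 2 fell (22.1% and 18.7% of all genes). On the spike-in scale 3 were higher and 5 lower (4.98% and 81.9% of all genes). Thbs1, thrombospondin 1, an activator of latent TGF-beta, read 7.28 and 7.10 on control and 9.32 and 9.40 on Npac RNAi arrays, a 4.49-fold rise (2.17, SE 0.0818, limma adjusted p = 0.00086). Pcsk6 and Furin encode the proteases that cleave the Nodal precursor, and they went in opposite directions. Pcsk6 read 9.07 and 9.13 against 8.54 and 8.51 (-0.58, SE 0.0506, limma adjusted p = 0.00356). Furin, named after its values were seen, read 7.63 and 7.52 against 8.24 and 8.21 (0.65, SE 0.0604, limma adjusted p = 0.00398), and had no call on the spike-in scale (0.11). Latency proteins moved in both directions: Ltbp4 fell (-0.39, SE 0.0468, limma adjusted p = 0.00682), and Ltbp2, dim and named after its values were seen, rose 1.87-fold (0.90, SE 0.105, limma adjusted p = 0.00641). Of 13 other antagonists and ligand-binding proteins 3 rose and 1 fell, and on the spike-in scale 2 were higher and 11 lower. Bgn, biglycan, a matrix proteoglycan that binds TGF-beta, led them with a 3.91-fold rise (1.97, SE 0.0593, limma adjusted p = 0.000704).

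Of 11 listed Nodal and TGF-beta targets 7 rose and 1 fell on the deposited scale, and of 10 BMP targets 6 rose and 1 fell (22.1% and 18.7% of all genes). On the spike-in scale 5 were higher and 5 lower in the first group and 3 and 4 in the second (4.98% and 81.9% of all genes). Msx2, a homeobox gene induced by BMP, read 8.27 and 8.30 on control and 10.08 and 10.05 on Npac RNAi arrays, a 3.43-fold rise (1.78, SE 0.0475, limma adjusted p = 0.000704), and 0.83 with the mean of its probe sets. Tagln, a contractile gene and TGF-beta target, gave the list's largest rise (2.38, SE 0.0639), followed by Gata3 (2.32) and Gata2 (2.27), regulators of trophoblast as well as BMP targets. Of the 28 raised genes of this list 5 are also among the cell type markers given above: Gata3 and Cdx2 (trophectoderm), Hand1 (trophectoderm and mesoderm), Eomes (mesoderm) and Foxa2 (primitive endoderm). Both mesoderm markers that rose, Eomes and Hand1, are thus listed targets too. Of these 5 genes, Hand1 (-0.17), Cdx2 (0.086) and Foxa2 (0.13) had no higher call on the spike-in scale. The listed targets that fell, both named after their values were seen, were Mixl1 (-0.31), whose call was lost without control array 1, control array 2 or Npac array 2, and Klf4 (-0.19), whose call was lost without any 1 array. Intracellular regulators gave 6 higher and 3 lower of 20, and 0 higher and 16 lower on the spike-in scale. The lower ones were the zinc finger genes Zfp423 (-0.50, SE 0.0927) and Zeb1 (-0.38, SE 0.0592), which act with Smads on DNA, and Strap (-0.34, SE 0.045), which binds TGF-beta receptors. Calls were lost for Zfp423 without control array 1 or Npac array 1, for Zeb1 without either control array or Npac array 2, and for Strap without control array 2 or Npac array 2.

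**Figure D4:**
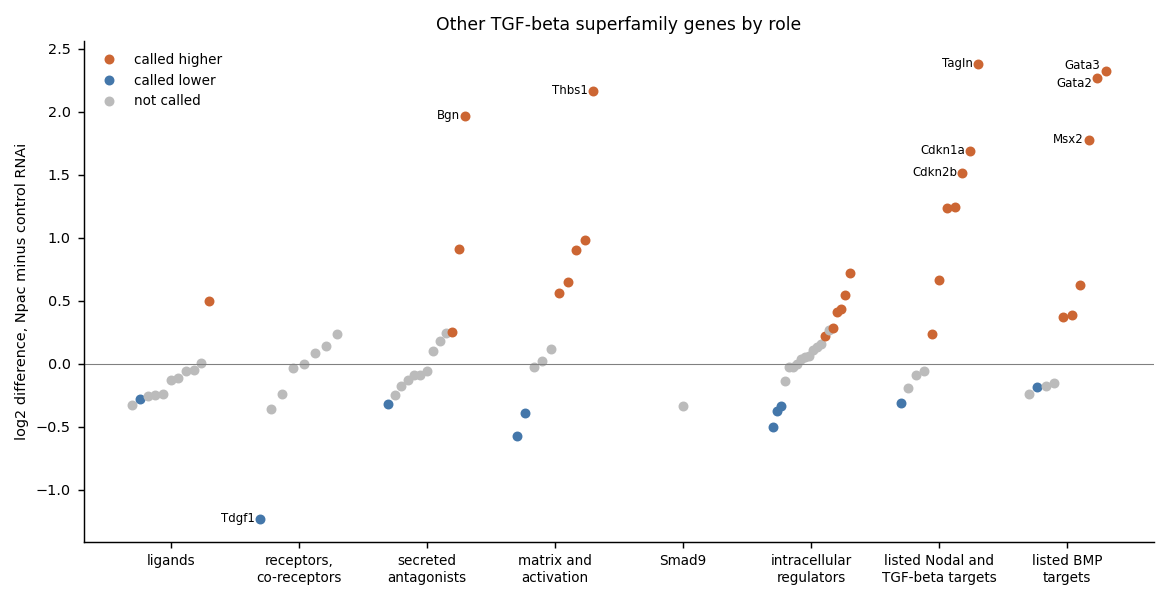
Each point is 1 of the 84 other superfamily genes, placed by role, at its log2 difference (Npac RNAi minus control RNAi, deposited values, n = 2 arrays per group) and coloured by its call. Ligands and receptors lie between -0.36 and 0.50 apart from Tdgf1 at -1.23, while listed targets and matrix genes reach 2.38; on the spike-in scale all points lie 0.54 lower.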

How the data were processed

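The authors deposited 1 log2 value per probe set and array, made with RMA per the submitters' processing notes. No log base, software or version is given in the sources used here, and log2 was inferred from the range of 2.78 to 15.05. The labels' protocols give 5 µg of RNA as input. Of 45101 probe sets, 64 were controls, 34945 carried 1 symbol, 932 several and 9160 none. Symbols were updated through Entrez identifiers (GRCm38.p6, names only, 34741 matched). Each gene was read by its brightest probe set over all 4 arrays, and no gene was filtered out for dimness. The test was limma (version 3.58.1, R 4.3.3) with group as the only term, adjusted over 18193 genes. The procedure was tested on simulated data, with independent noise drawn from the prior that limma had fitted. That simulation meets limma's assumptions by design, so it cannot show how well they hold for these arrays. The number of arrays limits precision, with 2 residual degrees of freedom and a prior of 2.28.

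The members, the second gene list, the markers and the rule for named genes (members, then the 6 most raised and 6 most lowered genes of the second list, with Tdgf1, Gdf3, Cer1 and Smad9) were chosen with earlier results of these data known. Alternatives covered the empirical Bayes step, scaling, dim genes, probe sets, thresholds, a block for the replicate number, and leaving out each array, where the lone array is assumed to vary like the other group. Promoter sequences are RefSeq's, and 37 of 54 listed genes matched.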

Additional observations from a re-analysis of the deposited data

How the results depend on the processing

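Of 31 called members, 22 (20 higher, 2 lower) kept their call and direction in all 4 fits with an array left out. The matching share of all called genes is not given here, so that count shows nothing particular to the members. Bmp8b, Tgfbr2, Tgfbr3, Fst and Ski, higher, and Inhbb, lower, kept their calls over all 16 alternatives. Bmp2, higher, did so over the 15 that tested it, since the filter to genes at or above the median level removed it. The filter uses the mean over all 4 arrays. Bmp8b, Tgfbr2 and Fst passed it only through their Npac RNAi values, so for them it is no independent check. Counts of all genes called (7425), of members higher and lower (25 and 6) and of second-list genes higher and lower (28 and 10) changed by over 1.5 times as follows. Without moderation they were 2551, 13, 2, 15 and 5. With spike-in scaling they were 15801, 11, 28, 13 and 60. An adjusted p under 0.01 left 3129 genes, 3 members lower and 4 second-list genes lower. A fold of at least 1.5 left 1842 genes, 1 member lower, and 17 higher and 1 lower in the second list. Centring gave 13 members and 27 second-list genes lower, quantile normalization 10 members lower, and the filter to genes at or above the median level 4. With 1 array left out the counts ran from 3088 to 4731 genes, 2 to 4 members lower and 4 to 7 second-list genes lower. The members' median (0.17) was 0.46 with that filter, 0.11 with the mean of probe sets, 0.029 after centring, -0.37 with spike-in scaling and 0.18 to 0.21 with an array left out. The cause of these shifts was not tested, apart from the constant shifts of centring and spike-in scaling and the fewer samples or genes used.

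The replicate block gave 4375 genes called, 3 members lower and 6 second-list genes lower. Deviations of same-numbered arrays from their group means correlated at -0.17. With 2 arrays per group, that value cannot settle whether the numbers pair the arrays. A crossed block, added after seeing the data, gave 7033 genes called, 25 members higher and 5 lower.

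With spike-in scaling the sign turned, with a call on at least 1 scale, for 17 members: Nodal (-0.41), Lefty1 (-0.53), Inha (-0.48), Tgfb3 (-0.46), Bmp4 (-0.35), Bmp6 (-0.49), Acvrl1 (-0.33), Bmpr1a (-0.097), Fstl3 (-0.45), Ltbp3 (-0.43), Smad1 (-0.45), Smad4 (-0.37), Smad5 (-0.23), Smad6 (-0.060), Tgif1 (-0.43), Smurf1 (-0.20) and Smurf2 (-0.046). No other alternative turned a called member.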
